A study of Mus musculus with 2 samples.

Results

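The cells described are the microglia with the largest summed share of transcripts from 8 genes: Slc39a1, Bmp2k, Notch2, Abhd2, Ttyh2, Rpgrip1, Kdm6b and Supt16. Members were the top 10% of cells of each library by that share, 213 of 2131 medial and 231 of 2308 lateral cells, or 444 of 4439 in all. Microglia, the resident macrophages of the brain, had been sorted from the medial or lateral corpus callosum of mice that had been on cuprizone for 4 weeks. Cuprizone chelates copper and leads to oligodendrocyte death and loss of myelin in this white matter tract. Both groups were C57Bl6 mice given as genotype CX3CR1, with the allele not stated, and both received cuprizone, so no untreated microglia entered any comparison. Each region gave 1 droplet library, and no source used here gives the number of mice behind a library or the sorting gate. With 1 library per region no test was possible. Intervals of ratios below are 95% intervals for counting error of UMIs only, and the libraries are set side by side, not treated as replicates. Intervals and limits given for shares of cells describe the cells of 1 library and are no measure of spread between animals.

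The 8 genes have unrelated textbook roles. Slc39a1 encodes the zinc importer ZIP1, and Notch2 a receptor that is cut on binding its ligand and then acts in the nucleus through Rbpj. Bmp2k encodes a kinase related to AAK1, which phosphorylates clathrin adaptors. Kdm6b encodes a histone demethylase that is induced in activated macrophages, and Supt16 a subunit of the histone chaperone FACT. Abhd2 encodes a lipid hydrolase, Ttyh2 a membrane protein of the tweety family, and Rpgrip1 a protein known from the photoreceptor cilium. In a droplet library each bead carries a synthetic cell barcode that is fixed before the bead meets a cell, and every transcript caught with that bead is read out under it.

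The deposited matrices held 28660496 medial and 27955414 lateral UMIs (unique molecular identifiers, which count captured transcripts). All cells had medians of 10732 medial and 9694 lateral UMIs. Only 7 barcodes were shared by the libraries, none by members of both. A doublet caller marked 5 cells in each library, with no member among them, and the marked cells were kept.

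Members were microglia by their markers. The 10 microglial markers made up 89.0 per 10000 UMIs in medial members and 84.1 in lateral members, against 116 and 109 in the matched comparison cells defined below. The 15 marker lists of other cell types summed to between 0 and 1.93 per 10000 UMIs in medial and between 0 and 1.53 in lateral members. The highest list in both libraries was that of monocytes, at 1.93 and 1.53 in members and 1.40 and 0.885 in matched cells, while Ly6c2, Plac8, Vcan, Chil3 and F10 had no UMI in members of either library. The label names Slc39a1, Notch2 and Bmp2k, but Kdm6b gave the most UMIs of the 8.

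The share of UMIs from the 8 genes formed a continuous range with no gap at the limit, and members are described here as part of that range. With few UMIs of these genes per cell, the lack of a gap cannot show whether a separate type exists. The lowest medial member stood at 0.2952% and the lowest lateral member at 0.3047%, and the highest non-members at 0.2949% and 0.3034%. Within 10% of the limit lay 146 medial and 138 lateral cells. The median over all cells was 0.0746% and 0.0778%, and the highest cell reached 0.773% and 0.954%. Medial members held between 8 and 112 UMIs of the 8 genes with a median of 21, and lateral members between 8 and 65 with a median of 18. A median of 5 of the 8 genes was seen per member, and 210 medial and 230 lateral members had at least 3 of them. In 80 medial and 61 lateral members 1 gene gave over 50% of these UMIs.

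**Figure D1:**
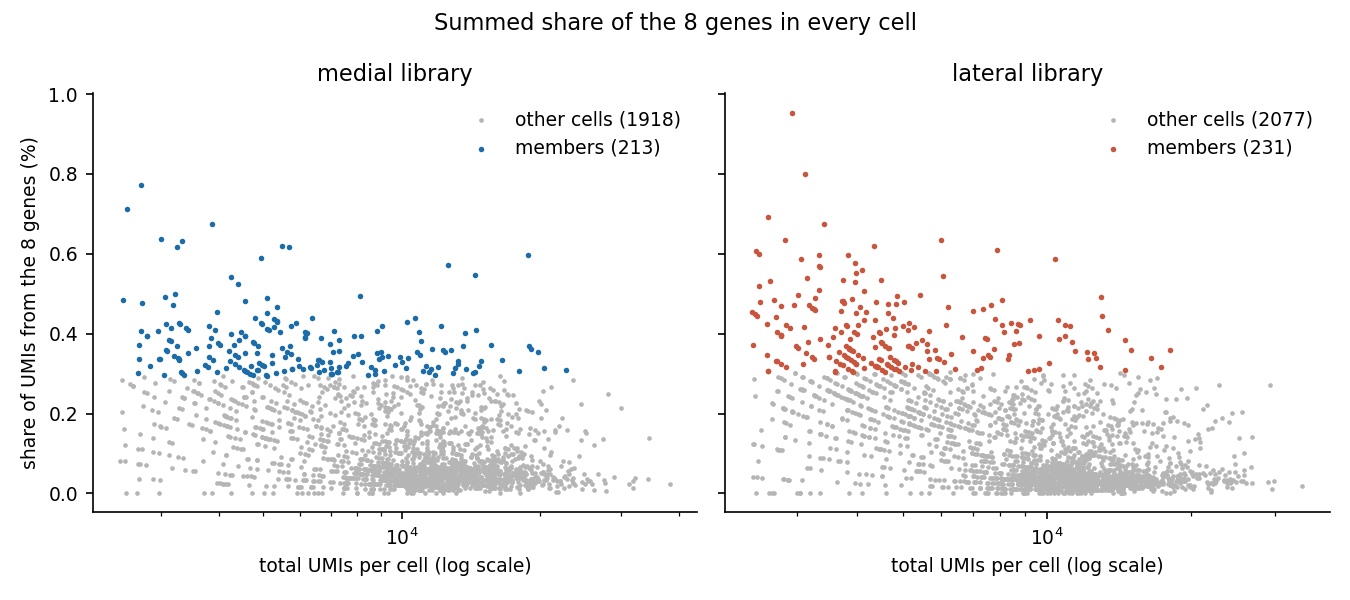
Share of UMIs from the 8 genes (y, percent) against total UMIs per cell (x, log scale) for each cell of the medial and lateral libraries, with the 213 and 231 members in colour. Members lie at every depth but are densest among cells of few UMIs, and no gap separates them from the other cells.

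Members were shallower than other cells. They had medians of 5493 medial and 4456 lateral UMIs, and 120 of 213 and 171 of 231 lay under 6000 UMIs, as did 392 of all 2131 medial and 570 of all 2308 lateral cells. Each member was matched on total UMIs to a cell below its library's median share. That pool ran out of shallow cells, and the matched cells had medians of 7535 and 7512 UMIs, with only 115 medial and 90 lateral pairs within 1.1-fold. Across cells the share and the log10 of total UMIs had a Pearson correlation of -0.448 over 2131 medial cells and -0.547 over 2308 lateral cells, a description of cells that share a library and in which the total is the share's own denominator. When every cell was thinned to 2400 UMIs before the share was taken, the top 10% still had medians of 5958 and 4803 UMIs and held 142 of the 213 medial and 168 of the 231 lateral members.

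The levels of the 8 genes, which chose the members, describe the range that the rule cut. Kdm6b stood at 1579 counts per 1000000 UMIs (CPM) in medial members and 150 in matched cells, and at 1491 and 108 in the lateral library. Bmp2k stood at 801 CPM in medial members against 130, and at 962 in lateral members against 122. For Slc39a1 the medial levels were 625 against 43.5 CPM and the lateral levels 729 against 43.1 CPM. These 3 genes gave 81.9% of the 8-gene UMIs of medial and 80.2% of those of lateral members. Notch2 was far lower, at 119 CPM in medial members against 9.99 and at 151 in lateral members against 11.2. Rpgrip1, at 175 and 181 CPM in members, and Supt16, at 171 and 166, were of similar level. Ttyh2 stood at 127 and 196 CPM and Abhd2 at 72.8 and 88.7 CPM. Most members lacked some of these low genes: Notch2 had a UMI in 112 of 213 medial and 123 of 231 lateral members, against 15 and 19 matched cells.

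On the GENCODE M21 annotation of the mouse genome (mm10, named in the submitters' processing notes), the 8 genes lie on 5 chromosomes. Slc39a1 (ENSMUSG00000052310) spans chr3:90248172-90253612 and Notch2 (ENSMUSG00000027878) chr3:98013527-98150361, both on the plus strand. Bmp2k (ENSMUSG00000034663) spans chr5:96997689-97091867 and Abhd2 (ENSMUSG00000039202) chr7:79273199-79365508, both on the plus strand. Ttyh2 (ENSMUSG00000034714) spans chr11:114675431-114720977 on the plus strand and Kdm6b (ENSMUSG00000018476) chr11:69398508-69413675 on the minus strand. Rpgrip1 (ENSMUSG00000057132) at chr14:52110704-52163546 on the plus strand and Supt16 (ENSMUSG00000035726) at chr14:52160414-52197416 on the minus strand run towards each other and overlap over 3133 bases, chr14:52160414-52163546. No source used here says whether reads in this overlap were assigned by strand, so their values may not be separate. The longest coding transcripts of the 8 genes had a median length of 6017 bases, against 2149 bases over the 1841 genes with a value among the 1867 measured below.

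Each of the 8 genes was also high in cells chosen by the other 7. Slc39a1 stood at 539 CPM in the medial cells so chosen and 72.9 in their matched cells, a log2 ratio of 2.89 (2.61 to 3.18), and at 637 and 76.2 in the lateral library, 3.06 (2.79 to 3.35). Kdm6b, the most abundant, had log2 ratios of 1.95 (1.79 to 2.11) medial and 2.36 (2.18 to 2.54) lateral, and Bmp2k of 1.76 (1.58 to 1.96) and 2.04 (1.85 to 2.23). For Notch2 they were 2.99 (2.36 to 3.69) and 3.07 (2.48 to 3.71). Over all 8 genes the log2 ratios ran from 1.76 to 4.27. The 8 were picked together with results of these cells known, so this is a description of how they go together and not independent support.

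The base composition of the cell barcode, which the rule did not use, moved with membership. Barcodes in these files hold between 5 and 11 A or T bases among 16. Members had a mean of 8.77 ± 1.59 A and T bases (SD over 213 cells) in the medial and 8.66 ± 1.49 (SD over 231 cells) in the lateral library, matched cells 7.24 ± 1.13 and 7.32 ± 1.17, and all cells 7.94 ± 1.40 and 7.91 ± 1.41. To show the difference, the barcode of the deepest member with 11 such bases and of the deepest cell below the median share with 5 is given for each library, with A and T in capitals. They were picked for these extremes after the pattern was seen.
Medial member: ATcTAcTAgATcgATA
Medial low-share cell: gAcgcgTcAccAggcT
Lateral member: TTcTTAgTcAATcTcT
Lateral low-share cell: TggcTggTcTccAggg
The medial member held 64 UMIs of the 8 genes among 20351 and the low-share cell 9 among 25194. The lateral pair held 56 among 16522 and 8 among 29005.

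Members were a larger share of cells among barcodes rich in A and T. In the medial library 22 of 478 cells with 7 A and T bases were members, 4.60% (exact binomial interval 2.91 to 6.89%), and 30 of 65 with 11, 46.2% (33.7 to 59.0%). In the lateral library the same values were 29 of 502, 5.78% (3.90 to 8.19%), and 17 of 58, 29.3% (18.1 to 42.7%). Medial cells with 7 and 11 such bases had median depths of 10792 and 10548 UMIs, and lateral cells 9726 and 11354.5. Over all numbers of such bases the medians ran from 10011 to 11864.5 in medial and from 9243 to 11354.5 in lateral cells.

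The 8-gene level over all cells followed the barcode in the same way. It was 576 CPM in medial cells with 7 A and T bases, 1336 with 9 and 2952 with 11, and 624, 1222 and 2596 CPM in the lateral library. Between 5 and 7 such bases it stayed between 539 and 653 CPM in both libraries. Actb, which encodes the cytoskeletal beta-actin and is no member of the 8, went from 5659 to 31758 CPM between 7 and 11 bases in medial cells and from 7251 to 37926 in lateral cells. Apoe, the lipid carrier and one of the most abundant microglial transcripts, stayed between 45216 and 49760 CPM in medial and between 38991 and 42671 in lateral cells. Actg1, the near-identical cytoplasmic gamma-actin, stayed between 1350 and 1658 CPM in medial cells.

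**Figure D2:**
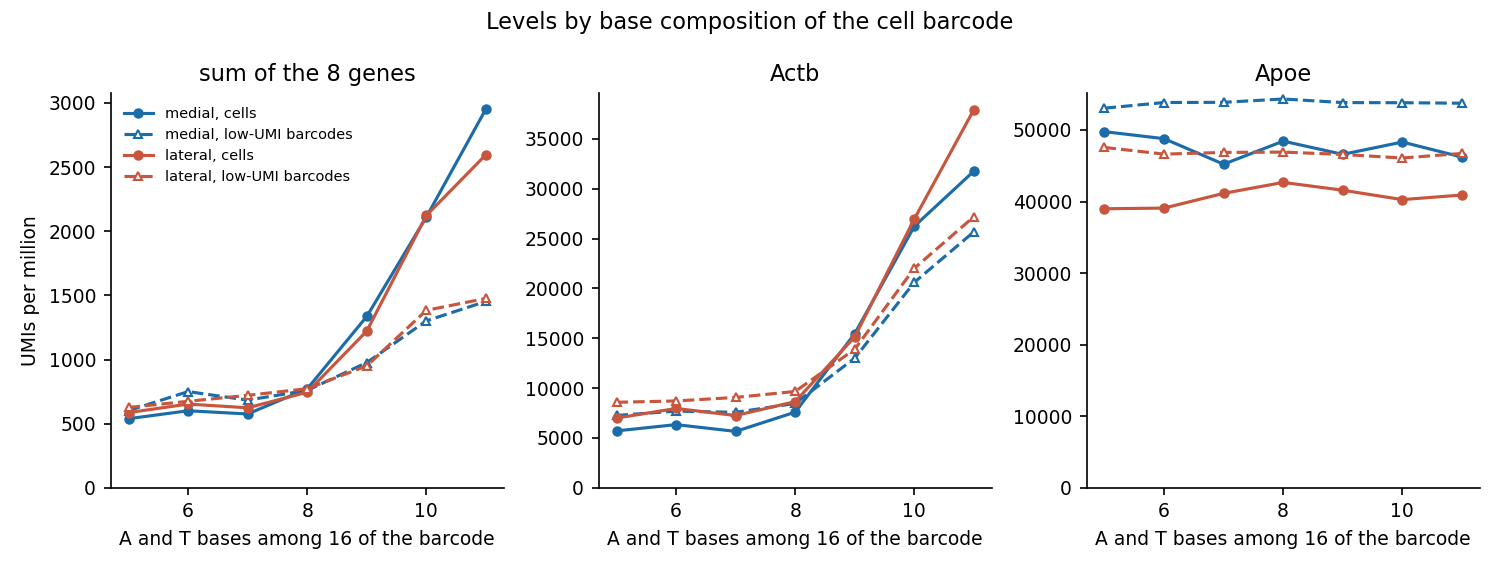
CPM of the 8 genes together, of Actb and of Apoe (y) against the number of A and T bases among the 16 of the barcode (x), for cells (solid lines) and for barcodes of 10 to 99 UMIs (dashed lines) of the medial and lateral libraries. The 8 genes and Actb climb from 8 bases upwards in both kinds of barcode, while Apoe stays level.

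Cells grouped by barcode alone, with no expression value used, differed in all 8 genes. The groups were 285 medial and 315 lateral cells with 10 or 11 A and T bases, each matched on total UMIs to a cell with 5 to 7, drawn from 811 and 899 cells, and medians were 11650 and 11621 UMIs in the medial and 10393 and 10372 in the lateral pairs. These group limits were set after the values along the barcode axis had been seen. Slc39a1 stood at 444 against 65.9 CPM in the medial library, a log2 ratio of 2.75 (2.55 to 2.96), and at 452 against 86.2 in the lateral, 2.39 (2.21 to 2.58). Kdm6b had log2 ratios of 1.91 (1.79 to 2.03) and 1.83 (1.71 to 1.97), and Notch2 of 2.45 (2.01 to 2.92) and 2.15 (1.77 to 2.56). Over the 8 genes and both libraries the range was 1.59 to 2.75, and no interval reached 0. Actb had 2.31 (2.29 to 2.34) and 2.15 (2.13 to 2.17).

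The barcode grouping touched few other genes. A gene was called higher or lower when its log2 ratio passed 0.32 the same way in both libraries, among genes with at least 200 UMIs in each. Of 3595 genes measured, 76 (2.11%) were higher in the group with more A and T, and 21 (0.584%) were lower. The 76 hold 7 of the 8 genes, and Abhd2 had too few UMIs to be measured. Bhlhe41, a transcriptional repressor of the microglial lineage, had log2 ratios of 2.35 and 2.12, Ncoa3, a nuclear receptor coactivator, 2.01 and 1.81, and Ptafr, the receptor for platelet-activating factor, 1.89 and 1.73. None of the 34 measured lysosome genes and none of the 29 homeostatic microglia genes was called. Of 33 measured cytokine and NF-kB genes 1 was higher and 1 lower. The median longest coding transcript was 4388.5 bases for the 66 of 69 higher genes outside the 8 that had a value, against 2435.5 bases over the measured genes.

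Depth moved with the 8 genes as well, at every barcode composition. Among medial cells with 5 to 7 A and T bases, the 8 genes stood at 2405 CPM under 4000 UMIs, 1937 between 4000 and 6000, 993 between 6000 and 8000, 477 between 8000 and 12000, and 365 above. Among those with 10 or 11 bases the levels were 3648, 3258, 2481, 2381 and 2126 CPM. In the lateral library the lowest and highest depth groups stood at 2434 and 314 CPM with 5 to 7 bases and at 3802 and 1908 with 10 or 11. No cell with 5 to 7 bases and at least 8000 UMIs was a member, 0 of 558 medial and 0 of 563 lateral cells. A limit of 3 counts, which takes cells as independent, allows shares of up to 0.538% and 0.533%. At this depth 46 of 209 medial and 34 of 214 lateral cells with 10 or 11 bases were members.

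**Figure D3:**
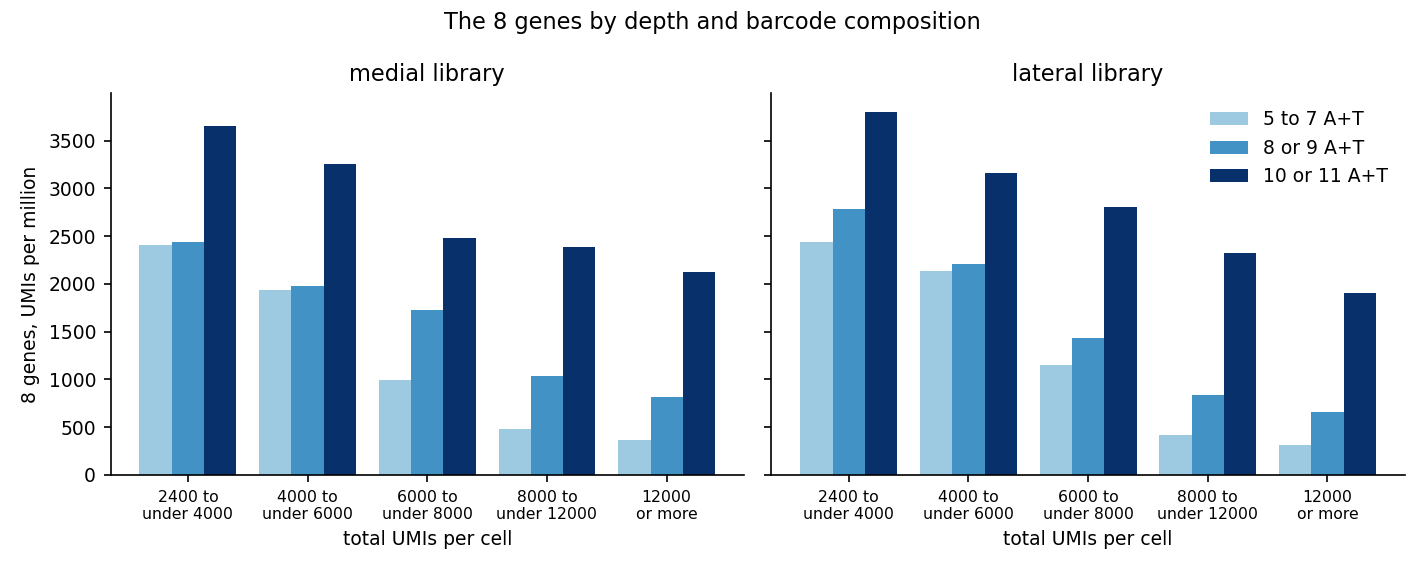
Level of the 8 genes together (y, CPM) in cells grouped by total UMIs (x) and by the number of A and T bases in the barcode (shades), for each library. Bars are sums over all cells of a group; they are lower at greater depth and, at each depth, the darkest bar, for 10 or 11 bases, is the highest.

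Members therefore comprised cells of unlike barcode and depth. Of the 213 medial members 82 (38.5%) had 10 or 11 A and T bases, against 13.4% of all medial cells, and 46 had 5 to 7. Of the 231 lateral members 81 (35.1%) had 10 or 11, against 13.6% of all lateral cells, and 53 had 5 to 7. The 82 and 81 had medians of 8972 and 6647 UMIs, and the 46 and 53 had medians of 4385.5 and 3911, with 41 and 51 of them under 6000. Their Actb levels were all high, at 32101 CPM in the medial members with 10 or 11 bases and 27406 in those with 5 to 7, and 40259 and 32552 CPM in the lateral. Apoe was unequal, at 53349 and 40414 CPM in these medial and 32471 and 24775 CPM in these lateral members.

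Against the matched cells, Actb had the highest ratio in members of the 1867 genes measured. With the 8 genes left out, it stood at 31089 CPM in medial members and 3987 in matched cells, a log2 ratio of 2.96 (2.93 to 3.0), and at 38229 and 4339 in the lateral library, 3.14 (3.10 to 3.17). Actg1, scaled to all UMIs, did not share this, with log2 ratios of -0.02 (-0.10 to 0.07) and 0.05 (-0.04 to 0.13). Sdc4, a heparan sulfate proteoglycan of the cell surface, stood at 531 against 110 CPM and at 490 against 64.4, log2 ratios of 2.27 (2.04 to 2.51) and 2.93 (2.63 to 3.24). Pim1, a serine/threonine kinase, stood at 884 against 246 and at 825 against 161 CPM, 1.84 (1.68 to 2.01) and 2.36 (2.17 to 2.56).

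A further set of genes with log2 ratios over 1 had unlike functions. Ptafr had 1.87 and 2.36, Kdelr2, which returns proteins to the endoplasmic reticulum, 1.88 and 2.23, Bhlhe41 1.92 and 2.20, and the heterochromatin protein gene Cbx3 1.88 and 2.05. B4galt1, a Golgi galactosyltransferase, had 1.97 and 2.05, Ncoa3 2.10 and 1.71, and Alkbh5, an RNA demethylase, 1.51 and 1.94. Lrrc58, Skil, Gnb1, Tacc1 and Ppm1h ran from 1.31 to 1.88. In the barcode grouping, which shares cells with this comparison, these 15 genes had log2 ratios between 0.38 and 2.35. The lowest there was Tacc1, with 0.38 and 0.42, against 1.41 and 1.59 in members.

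In all, 1867 genes had at least 200 UMIs over members and matched cells in each library. Of these 108 (5.78%) were called higher and 60 (3.21%) lower in members. The median log2 ratio over the 1867 genes was -0.01 in both libraries. The cells were chosen on this contrast, so the counts describe it and support nothing by themselves.

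**Figure D4:**
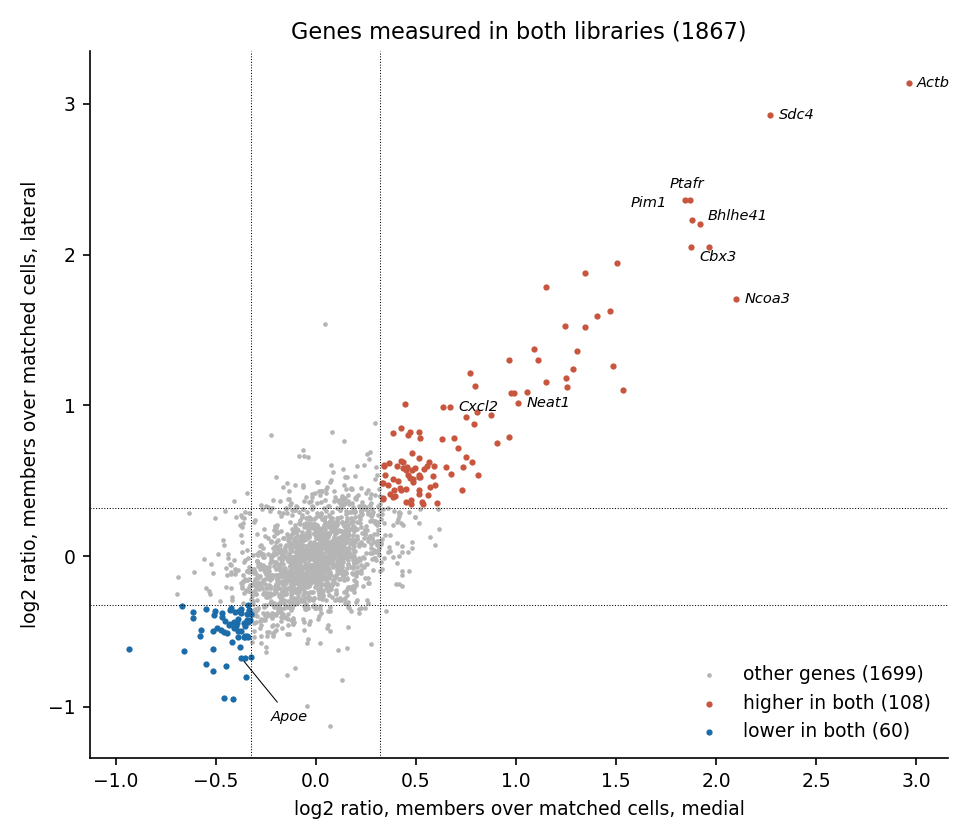
Log2 ratio of members over matched cells in the medial (x) and lateral (y) library for 1867 genes, the 8 genes left out; dotted lines mark log2 ratios of 0.32 and -0.32. The 108 genes higher in both form a tail up to Actb at 2.96 and 3.14, and the 60 lower genes reach less far, with H2-T23 at -0.66 and -0.63.

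Some lysosome, disease-associated and homeostatic microglia genes were lower in members, and no measured gene of these lists was called higher. Of 30 measured lysosome genes 9 were lower in both libraries and none higher, with median log2 ratios of -0.28 and -0.31. The protease genes Ctsl and Lgmn had log2 ratios of -0.49 and -0.48, and -0.45 and -0.51. In cells of at least 6000 UMIs none of the 30 lysosome genes was called, and their medians were -0.19 and -0.16. Over all genes, too, fewer were called lower in those cells.

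Of 29 measured disease-associated microglia genes 8 were lower and none higher, with medians of -0.19 and -0.22. Apoe stood at 46698 CPM in medial members against 60412 in matched cells, and at 29559 against 47254 in the lateral library, log2 ratios of -0.37 (-0.39 to -0.36) and -0.68 (-0.69 to -0.66). Cd9, a tetraspanin, had -0.51 and -0.50. Of 24 measured homeostatic genes 6 were lower and none higher, with medians of -0.21 and -0.28. Among the lower genes were Tmem119, Siglech, Olfml3, Fcrls and Cst3, named after their values were seen. Cx3cr1, the fractalkine receptor, had 0.31 and 0.27, P2ry12, the purinergic receptor, -0.30 and -0.10, and Csf1r -0.09 and -0.21, and none of these 3 was called. Spp1, a secreted phosphoprotein, had -0.30 and -0.15.

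Some cytokine and immediate early genes were called higher in members taken with Kdm6b in the share, and none in members taken without it. Of 25 measured cytokine and NF-kB genes 7 were higher and none lower, with medians of 0.19 and 0.44. Cxcl2, a neutrophil chemokine, stood at 841 against 527 CPM and at 659 against 332, log2 ratios of 0.67 (0.55 to 0.80) and 0.99 (0.83 to 1.15). Of 24 measured immediate early genes 7 were higher and 3 lower, with medians of 0.16 and 0.29, and Btg1, an antiproliferative gene, had 0.52 and 0.44. The 3 lower ones, named after their values were seen, were Klf2, Sgk1 and Rgs2, with log2 ratios between -0.61 and -0.37. With Kdm6b left out of the share, an alternative added after the data were seen, no cytokine gene was higher and 3 were lower, with medians of -0.14 and -0.01, and Cxcl2 had -0.49 and -0.09. No immediate early gene was then higher and 5 were lower, with medians of -0.30 and -0.15. The share called over all genes under this setting is not given here, so these counts are not set against it. Kdm6b gave 43.0% of the 8-gene UMIs of medial and 37.6% of those of lateral members.

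The pathways that the 8 genes belong to were mostly under the UMI limit, and few of their genes were called. Of 40 Notch pathway genes in the files 5 were measured and none was called, with medians of -0.08 and 0.13. Adam10, the protease that cuts Notch receptors, had log2 ratios of 0.13 (-0.22 to 0.48) and 0.23 (-0.11 to 0.56). The target Hes1, with 45 and 33 UMIs in members, had 0.06 (-0.55 to 0.67) and -0.33 (-1.0 to 0.31). Rbpj had 0.43 (-0.05 to 0.92) and 0.45 (-0.05 to 0.96).

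Of 21 zinc transporter and metallothionein genes 2 were measured, Slc39a7 and Mt1, and neither was called. Of 24 clathrin and AP-2 genes 10 were measured and 1 was higher, Picalm, a clathrin assembly protein gene, with 0.63 (0.43 to 0.83) and 0.78 (0.58 to 0.98). In the barcode grouping Picalm had 0.47 and 0.55. On the equal barcode comparison described below it had 0.26 and 0.22 and was not called. Among histone methylation enzymes only Kmt2e was measured, at 0.17 and 0.29, and the Kdm6b paralogue Kdm6a had 16 and 12 UMIs in members. Ssrp1, the FACT partner of Supt16, had 0.40 (-0.07 to 0.86) and 0.31 (-0.17 to 0.80).

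Smaller lists held a few calls each, and the genes named for them were singled out after their values were seen. Of 8 measured MHC class I genes, which present peptides to T cells, H2-D1 and H2-T23 were lower, and the list's medians were -0.28 and -0.26. Of 19 phagocytic and complement receptor genes the Fc receptor gene Fcgr3 and the complement gene C1qa were lower, with medians of -0.17 and -0.20. Of 6 TGF-beta signalling genes Skil was higher, with medians of 0.16 and 0.23. Of 10 lipid efflux genes Abcg1, a sterol transporter, with 1.54 and 1.103, and Soat1, which esterifies cholesterol, with 0.48 and 0.51, were higher and Apoe was lower. Of 15 microglial transcription factor and CSF1R genes Bhlhe41, Fli1 and Runx1 were higher. Of 18 stress response genes Pdia6 was lower, and none of 5 interferon response or 5 MHC class II genes was called. On the equal barcode comparison described below, H2-T23, Skil and Pdia6 were still called and the other genes named here were not, and Abcg1 had 0.31 and -0.22.

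None of 78 measured ribosomal protein genes, 69 nuclear respiratory chain genes, 14 glycolysis genes or 11 mitochondrially encoded genes was called. Among 23 measured nuclear-retained and splicing transcripts 3 were higher: Neat1 with 1.01 and 1.02, Srrm2 with 1.15 and 1.15, and Luc7l2, named after its value was seen, with 0.39 and 0.44. On the equal barcode comparison Neat1 had 0.47 and 0.42 and Luc7l2 0.21 and 0.04, and with Kdm6b also left out of the share Neat1 had -0.16 and -0.11. Malat1, the abundant nuclear transcript, had -0.04 and -0.01. The median mitochondrial share per cell was 2.32% in medial members and 2.42% in their matched cells, and 2.74% and 2.76% in the lateral library.

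Matched to non-members of equal A and T number and of total UMIs within 1.1-fold, members differed less. This comparison, added after the data were seen, held 202 medial and 216 lateral pairs with medians of 5606 and 5611, and 4513 and 4492.5 UMIs. Of 1597 measured genes 49 (3.07%) were higher and 15 (0.939%) lower in both libraries. Actb kept a log2 ratio of 0.42 (0.40 to 0.44) and 0.49 (0.47 to 0.51), Sdc4 of 0.88 and 0.95, and Pim1 of 0.73 and 1.03. Bhlhe41 had 0.16 (-0.05 to 0.36) and 0.15 (-0.03 to 0.33), and Ncoa3 0.16 (-0.15 to 0.48) and 0.08 (-0.24 to 0.41). Here the comparison cells were non-members of any share, not only those below the median. With that pool matched on depth alone, 68 genes were higher and 23 lower, and Actb had log2 ratios of 1.27 and 0.97.

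On the equal barcode comparison, 4 of 29 lysosome genes were lower, with medians of -0.19 and -0.23, and 4 of 29 disease-associated genes, with medians of -0.18 and -0.12. Of 22 homeostatic genes 1 was lower, with medians of -0.07 and -0.16. Apoe, at -0.21 and -0.59, and Tmem119, at -0.44 and -0.27, were no longer called, nor were Siglech, Olfml3, Fcrls and Cst3. Cd9 had -0.40 and -0.45, and Ctsl -0.36 and -0.46. Of 24 cytokine genes 8 were higher, and of 23 immediate early genes 6. With Kdm6b also left out of the share, no gene of these last 2 lists was higher, and 3 cytokine and 4 immediate early genes were lower. The shares called over these lists and over all genes under this setting are not given here, so nothing is read from these counts. Sdc4 then had 0.16 and 0.35, Actb 0.71 and 0.54, and Cd9 -0.41 and -0.46.

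The 8 genes themselves, each left out of the share in turn, had log2 ratios above 0 on the equal barcode comparison, with an interval that reached 0 for Ttyh2 in the medial library, 0.33 (-0.01 to 0.69). Slc39a1 had log2 ratios of 0.54 (0.38 to 0.70) and 0.59 (0.43 to 0.75), Supt16 0.78 (0.44 to 1.13) and 0.61 (0.25 to 0.97), and Notch2 0.50 (0.13 to 0.87) and 0.46 (0.10 to 0.82). The range over 8 genes and both libraries was 0.19 to 0.82, and 6 of the 8 passed 0.32 in both. With the same pool of all non-members matched on depth alone, an alternative added after the data were seen, it was 0.62 to 1.70, against 1.76 to 4.27 with low-share cells, so the change of pool moved the values as well. The genes that did not pass 0.32 in both libraries at equal barcode composition were Bmp2k and Kdm6b. Bmp2k stood at 0.20 (0.06 to 0.34) and 0.19 (0.05 to 0.33), and Kdm6b at 0.31 (0.20 to 0.43) and 0.40 (0.28 to 0.53). The part of depth or barcode composition in the remaining difference was not tested.

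**Figure D5:**
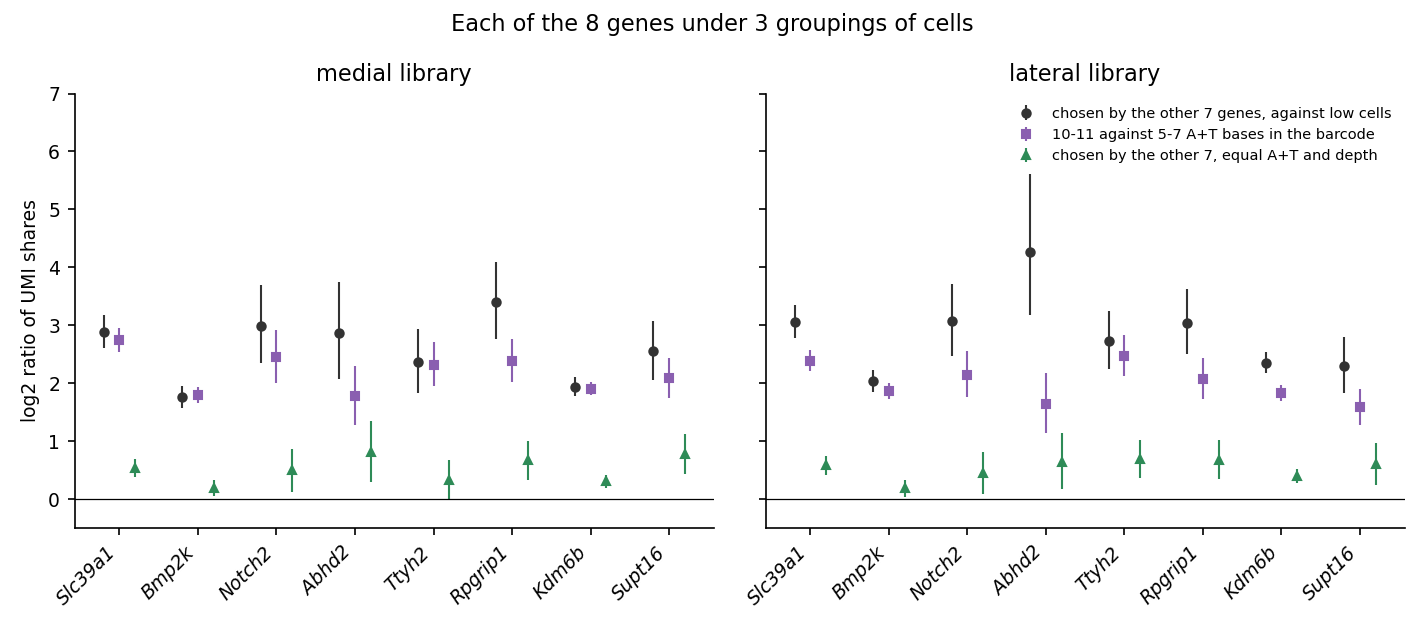
Log2 ratio (y) of each of the 8 genes (x) in the medial and lateral library under 3 groupings: cells chosen by the other 7 genes against depth-matched low-share cells (circles), barcodes of 10 or 11 against 5 to 7 A and T bases (squares), and cells chosen by the other 7 against cells of equal barcode composition and depth (triangles). Bars are 95% counting intervals; circles run from 1.76 to 4.27, squares from 1.59 to 2.75, and all triangles lie under 1.

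Between regions the 8 genes differed little over all cells. The medial sum was 1041 CPM and the lateral sum 1017 CPM, a log2 ratio of medial over lateral of 0.03 (0.01 to 0.06), and of -0.07 when each cell counted alike, so its direction depends on the weighting. Kdm6b was higher in the medial library, at 393 against 324 CPM, 0.28 (0.23 to 0.32). Ttyh2 was lower there, at 47.9 against 58.4 CPM, -0.29 (-0.40 to -0.17), as was Slc39a1, at 166 against 185 CPM, -0.16 (-0.22 to -0.09). For Notch2 the ratio was -0.06 (-0.20 to 0.08). The number of members per region is fixed by the rule and is not compared.

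Cells taken in the same way and number by other transcripts overlapped with members to unlike degrees. Each set is 10% of a library's cells, the share to read these values against. The top 10% of cells by Actb share held 79 of the 213 medial members (37.1%) and 91 of the 231 lateral members (39.4%). The top 10% by the cytokine and NF-kB list held 30 (14.1%) and 36 (15.6%), and that by the immediate early list 23 (10.8%) and 36 (15.6%). Those by Spp1, Gpnmb and Lgals3, genes of the disease-associated programme, held 9 (4.23%) and 15 (6.49%).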

How the data were processed

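Sorted microglia were profiled by droplet 3' single-cell RNA-seq on a NextSeq 500, 1 library per region, after GentleMACS dissociation, per the labels' protocols. The authors deposited whole-number UMI counts for 27998 genes and 737280 barcodes per library, not normalised; Cell Ranger 2.0.1, STAR and mm10 are named in the submitters' processing notes. The 56 repeated gene symbols were summed. Cells had a minimum of 2400 UMIs and of 300 genes, and a maximum of 10% mitochondrial UMIs removed 3 barcodes per library. The members, gene lists and alternatives were chosen with earlier results of these data known. UMIs were summed over cells of a class within a library, scaled to CPM without the 8 genes unless these are the values given, and compared as ratios with exact conditional binomial 95% intervals, which cover counting error only. Calls needed a log2 ratio past 0.32 in both libraries and 200 UMIs in each. No p-value was computed. Values of some genes are not reported here. Named genes were the 15 highest and 15 lowest ranked by the bound closest to an equal level, and from each of 26 lists the farthest gene each way and the most abundant, plus a fixed set of 16; mitochondrially encoded, ribosomal protein and unnamed genes could not enter the top 15. The barcode analysis was made after the member comparison had been seen, following looks at Actb, at depth, at each base and each barcode position, and at statistical fits that are not used here. Its group limits, like the share without Kdm6b, the 1.1-fold pairs and the limit of 6000 UMIs, were set with values in view. Scrublet in scanpy 1.11.5 was run with an expected doublet rate of 0.05. Scripts, tested on simulated data, used Python 3.11.15, numpy 2.4.6 and scipy 1.17.1.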

Additional observations from a re-analysis of the deposited data

Results flagged for a closer look

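The comparisons of cells do not use barcodes of 10 to 99 UMIs, which hold free RNA rather than cells. Among them, too, the 8 genes and Actb moved with the A and T bases of the barcode. In the medial library the 8 genes stood at 1329 CPM in barcodes of 10 or 11 such bases and at 696 CPM in those of 5 to 7. Medial Actb stood at 21540 and 7575 CPM. In the lateral library the 8 genes stood at 1401 and 696 CPM and Actb at 22990 and 8900 CPM. None of these 85973 medial and 87969 lateral barcodes was 1 mismatch from the barcode of a cell. The files list a fixed set of barcodes, a small part of all possible sequences of that length, so few such neighbours could occur. The absence of neighbours therefore cannot show that the pattern in free RNA is separate from that in cells. Apoe in free RNA stayed between 53046 and 54328 CPM over all 7 medial barcode classes. With 1 library per region, no group was large enough for a check of outlying samples.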

How the results depend on the processing

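No paired analysis was possible because each region has 1 library. Against 108 higher and 60 lower genes, counts moved over 1.5 times under these settings: the top 5% as members, 62 higher; the top 20%, 29 lower; matched cells from all non-members, 68 and 23; genes of at least 50 UMIs, 331 and 235; and a 1.5-fold limit, 48 and 2. Among alternatives added after the data were seen, pairs within 1.1-fold depth gave 46 and 23, equal barcode composition and depth 49 and 15, the same without Kdm6b in the share 35 and 28, barcodes of at most 7 A and T bases 29 higher of 275, and cells of at least 6000 UMIs 25 lower. Fewer genes were tested in most of these; other causes were not tested. All 8 left-out genes stayed higher with the top 20%, at a thinned depth (1.18 to 2.78), with each cell counted alike and against all non-members (0.62 to 1.70), and 6 at equal barcode composition. The medial over lateral ratio of the 8 genes turned from 0.0337 to -0.0749 with each cell counted alike. Signs turned for Klf2 in the medial library at a thinned depth (0.65), in the lateral with pairs within 1.1-fold (0.0520); Picalm medial with at most 7 A and T bases (-0.16); Abcg1 lateral at equal barcode composition (-0.22); without Kdm6b, Cxcl2 (-0.491 and -0.0901) and the cytokine median lateral (-0.0142). At equal barcode composition without Kdm6b they turned for the lateral cytokine median (-0.0407), the lateral G2 and M phase list, which is 1 gene (-0.0783), Abcg1 (-0.0450 and -0.199), Neat1 (-0.16 and -0.11), Btg1 (-0.0582), Cxcl2 (-0.97) and Klf2 (0.0684) medial, and Rsrp1 (0.00404) and Tmem119 (0.14) lateral. Of 3060 values of named genes 2105 stayed within their counting interval, 940 moved and 15 reversed; of 878 list medians 584 stayed, 291 moved and 3 reversed. Depth limits low genes: 1867 genes were measured, and the imperfect depth match leaves members shallower.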
